A study of Arabidopsis thaliana with 32 samples.

Results

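Whole seedlings of the Arabidopsis sahh1 mutant were compared with Columbia wild-type seedlings at the age of 4 days. The comparison holds the 8 arrays labelled with that age, 4 of sahh1 and 4 of wild type, out of 32 arrays over both genotypes and 4 ages (1, 4, 7 and 10 days). Total RNA was labelled with Cy3 and hybridised to NimbleGen arrays, 1 colour per array. The sahh1 allele, the number of seedlings in a preparation and the growth conditions are not given in the sources used here. Within every group arrays 1 and 2 resembled one another, as did arrays 3 and 4, and no label explains why. Each such pair was averaged, so each genotype had 2 samples, and p-values measure only the spread between these samples, which may be technical. All 30385 loci of the array table were tested.

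S-adenosylhomocysteine is left behind when a methyltransferase takes a methyl group from S-adenosylmethionine, and it inhibits many of these enzymes. S-adenosylhomocysteine hydrolase splits it into adenosine and homocysteine and so keeps methylation of DNA, histones, RNA and small molecules going. Arabidopsis has a pair of genes for the enzyme, SAHH1 and SAHH2, and SAHH1 is also known as HOG1 because its mutants release silenced genes. Plants with weak alleles are known to grow slowly and to form short root hairs.

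SAHH1 itself checks the labels. Its log2 level was 12.98 and 13.91 in the sahh1 samples, against 14.93 and 15.02 in the wild-type samples. Both sahh1 samples lay below both wild-type samples, and sample 1 lay further down than sample 2. The mean difference was −1.53 ± 0.23 (SE of the limma fit that gives all groups 1 spread, n = 2 samples each). With weights by spread the SE was 0.25. On the values as deposited, sahh1 thus held 34.5% of the wild-type level. The 95% interval in the fit with 1 spread was 24.2% to 49.3%, and that fit gives these samples too small an error. After quantile normalization of all arrays the difference was −1.10. With the values as deposited, the adjusted p was 0.0144 in the limma fit that gives all groups 1 spread. It was 0.103 in the limma fit that gives samples weights by their spread. SAHH2 stood at 13.23 and 12.76 in sahh1 and at 13.16 and 12.82 in wild type. In the limma fit with 1 spread its difference was 0.00 ± 0.19 with an adjusted p of 0.997. With 2 samples against 2 the exact permutation test cannot go below p = 0.333, and that was its two-sided value for SAHH1. SHM4 and RALFL31, the annotated neighbours of SAHH1, were looked up after its value was seen, and differed by 0.38 and −0.08 on the log2 scale with adjusted p of 0.142 and 0.951.

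The spread between the sahh1 samples was wider at day 4 than in any of the other groups. Over the 15192 loci above the median level, the SD of the difference between the samples was 0.686 in sahh1 at day 4, against 0.262 in wild type at day 4 and 0.160 to 0.313 in the remaining groups. A fit with 1 shared spread therefore gives these samples too small an error. That fit called 490 loci at an adjusted p under 0.05, which is 1.61% of all loci, and 237 of them were higher in sahh1 (0.78%) and 253 lower (0.833%). Of these calls 121 were at least 2-fold higher (0.398% of all loci) and 185 at least 2-fold lower (0.609%). Weights that let each group keep its own spread gave the sahh1 samples a weight of 0.213, against 1.01 to 2.02 elsewhere, and left 17 loci (0.0559%), 16 higher (0.0527%) and 1 lower. A fit of the 4 day 4 samples alone called 11 loci (0.0362%), all higher, and 10 of these were among the 17. At an unadjusted p under 0.05 the shared fit counted 4601 loci, the weighted fit 1499 and the fit of day 4 alone 1769. Below, "rose" and "fell" are kept for the 17 loci, all of which the shared fit also called. The other loci of the 490 are described as called with the shared spread, with their levels. Scaled to reference genes the shared fit called 301 higher and 178 lower, against 237 and 253 with the values as deposited, so the balance of higher and lower calls is not fixed by these data.

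**Figure D1:**
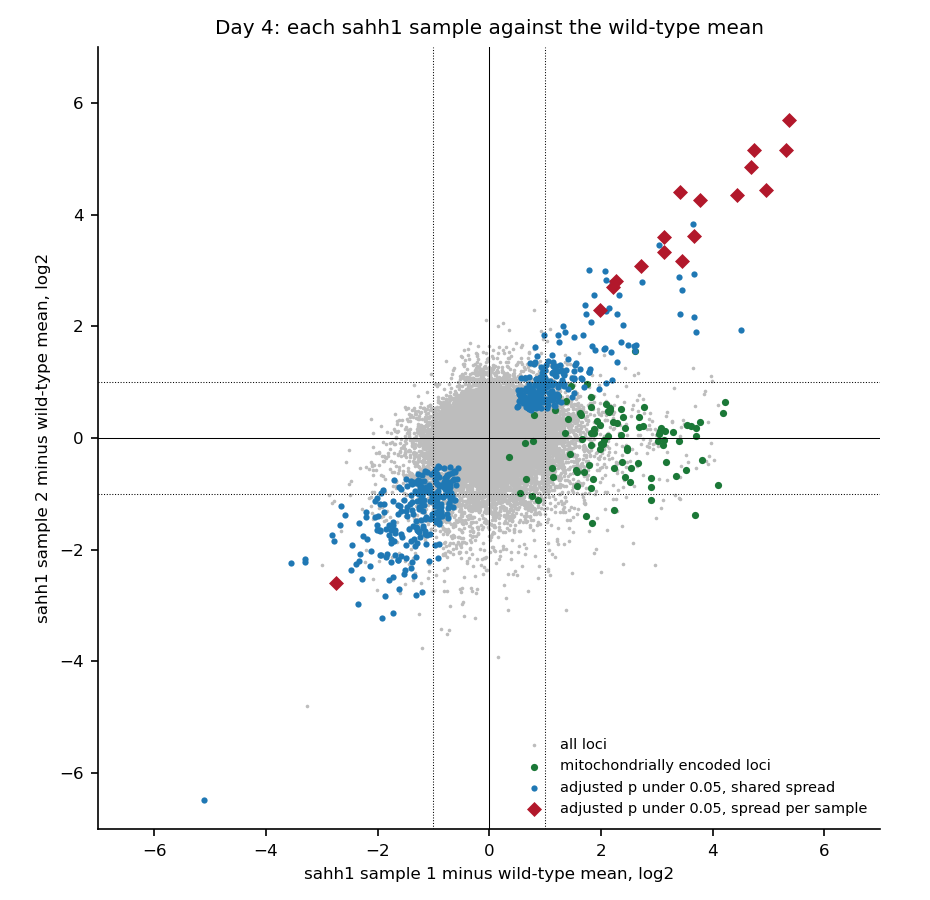
Each point is 1 locus, with the difference of sahh1 sample 1 from the wild-type mean on the x axis and that of sahh1 sample 2 on the y axis, both in log2 units, and dotted lines at 2-fold. The 17 loci called with weights (diamonds) lie near the diagonal, 16 up and 1 down. The 97 mitochondrially encoded loci (green) stretch to the right and lie on both sides of 0 on the y axis, from −1.51 to 1.55 with a median of 0.04.

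With weights, 3.18% of all loci were called higher in sahh1 at day 1, 0.638% at day 7 and 1.05% at day 10. All 16 loci that rose were among these at each of these ages. Most were dim in wild type: all but AT5G26270 lay below the median wild-type level of 8.86 on the log2 scale, and AT2G05915, AT2G40955 and AT5G27345 lay below the lower quartile of 5.55. Background was not examined, so a level this dim is not shown to lie above it, and a fold is the ratio of the deposited intensities. Their differences ran from 2.14 to 5.53 on the log2 scale. Leaving aside AT5G26270, the other 15 gave intensities of 210.2 to 3601.9 on the sahh1 arrays and 27.6 to 213.3 on the wild-type arrays. Within each of them the 4 sahh1 arrays lay above all 4 wild-type arrays, which follows largely from their choice by this same difference. Over all loci, the 4 arrays of each genotype were separate, in either direction, at 12.5%. The annotation marks 12 of the 16 as protein coding and 4 as pseudogenes, and of the 16 only LBD26 has a symbol there.

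AT2G19850 rose most. Its intensity was 2655.7, 2215.5, 2591.1 and 3601.9 on the sahh1 arrays, against 62, 38.4, 83.9 and 60.1 on the wild-type arrays. That is a 46.2-fold difference, 5.53 ± 0.46 on the log2 scale (SE of the weighted limma fit, adjusted p = 0.00098).

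AT3G54730 was read at 2707.7, 1700.9, 1840 and 2040.2 in sahh1 and at 71.4, 51.9, 55.2 and 42.6 in wild type, a 37.5-fold rise (weighted limma fit, adjusted p = 0.00223). AT4G16215 followed with 1500.3, 1163.6, 1595 and 1956.8 in sahh1 and 42.7, 67.4, 38.9 and 54.9 in wild type, or 30.7-fold (adjusted p = 0.000219, weighted limma fit). In both the samples of a genotype lay close together and far from those of the other.

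AT2G05915 had 1049.8, 1038.1, 1240.9 and 1098.5 in sahh1 and 34.6, 34.8, 32.2 and 70 in wild type, a ratio of 27.2 in deposited intensity. Its difference was 2.04 on the log2 scale at day 1, 4.77 at day 4, 6.18 at day 7 and 5.23 at day 10. AT1G77960 also differed least at day 1, with 2.43 at day 1, 4.39 at day 4, 4.54 at day 7 and 4.08 at day 10, and it had the smallest adjusted p at day 4 (1.64e-05, weighted limma fit). These values are as deposited, and array medians differed between ages, so they describe each age on its own scale.

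LBD26 belongs to the LOB-domain family of plant transcription factors. Its arrays read 831.6, 857.9, 1304.9 and 1074 in sahh1 and 172.3, 156.9, 186.6 and 213.3 in wild type, a 5.52-fold rise (weighted limma fit, adjusted p = 0.0388). The rise was of the same order at the other ages, 2.47, 2.55 and 2.22 on the log2 scale at days 1, 7 and 10. AT5G26270 differs from the rest of the set in being well expressed in wild type: it read 18133 to 22634.7 in sahh1 and 4152.8 to 4833 in wild type, a 4.39-fold rise.

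The remaining rises were those of AT2G40955 (25.9-fold), AT4G29200 (16.2-fold), AT5G45095 (15.1-fold), AT5G15360 (9.38-fold) and AT4G18150 (5.82-fold), together with the pseudogenes AT3G33076 (12.5-fold), AT5G28335 (10.2-fold), AT5G27345 (9.91-fold) and AT5G33395 (7.43-fold). In AT5G45095 the sahh1 samples stood furthest apart in the set, at 9.10 and 10.09 on the log2 scale, against 6.05 and 5.30 in wild type.

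The one locus that fell is AT3G63380, a protein-coding locus without a symbol. It read 955.3, 991.9, 1103.1 and 1051.3 on the sahh1 arrays, against 6706.8, 7660.6, 5702 and 6087.2 on the wild-type arrays. The fall was 6.35-fold, −2.67 ± 0.32 on the log2 scale (weighted limma fit, adjusted p = 0.0149). The mutant is not low here in comparison with other ages. After quantile normalization of all arrays its mean log2 level was 10.52 in sahh1 and 10.41 in wild type at day 1, 10.99 and 13.51 at day 4, 10.12 and 10.33 at day 7, and 10.84 and 10.53 at day 10. Wild type at day 4 was thus the single high group, and with weights the departure of the day 4 difference from the other ages had an adjusted p of 0.307. In the fit of day 4 alone its adjusted p was 0.0983.

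**Figure D2:**
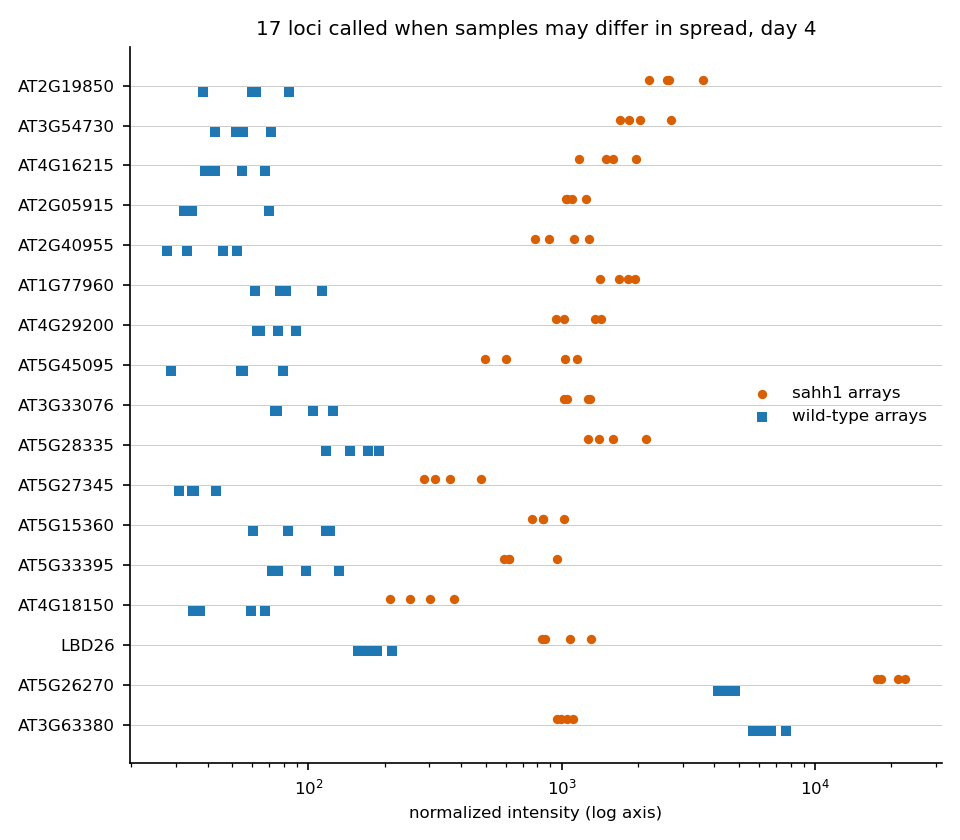
Normalized intensity on a log axis for each of the 17 loci called with weights, with the 4 sahh1 arrays as circles above the 4 wild-type arrays as squares. In every row the genotypes are separate, which follows largely from the choice of loci by this difference. AT3G63380 in the bottom row is the one where wild type is higher.

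Among genes with a symbol, several of the largest differences called with the shared spread were in genes that wild-type plants keep silent through DNA methylation. The 11 genes of the list of methylation-silenced or imprinted genes gave 3 called higher and 0 lower (27.3%). Of the 11, 7 had a positive and 4 a negative difference, and 4 had both sahh1 samples above both wild-type samples. The median difference was 0.11, beside 0.02 over all loci. The 3 are QQS, SDC and FWA.

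QQS is an orphan gene that acts on starch and protein content. Its log2 level was 9.70 and 9.88 in sahh1, against 5.92 and 6.18 in wild type, a 13.4-fold difference. It was called in the fit of day 4 alone (limma, adjusted p = 0.0331) and with the shared spread (0.00075), but not with weights (0.177). The sahh1 and the wild-type samples did not overlap, which was a condition for naming it here. The gene was also called higher at the 3 other ages with the shared spread.

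SDC encodes an F-box protein whose promoter repeats are methylated in wild type. It stood at 8.99 and 9.43 in sahh1 and at 6.22 and 5.70 in wild type, a 9.49-fold difference (adjusted p = 0.021 with the shared limma fit, 0.692 with weights). FWA, a homeodomain gene that is silent outside the endosperm, stood at 7.43 and 7.23 in sahh1 and at 5.66 and 5.51 in wild type, or 3.35-fold (0.0144 and 0.658). As deposited, FWA differed by 0.14 at day 1, 2.79 at day 7 and 2.71 at day 10, each on its own scale. After quantile normalization FWA stood at 7.9 in sahh1 and 7.8 in wild type at day 1. It stood at 8.32 and 5.44 at day 4, 8.51 and 5.95 at day 7, and 8.16 and 5.6 at day 10. Its wild-type level was thus highest at day 1. On the same scale SDC stood at 6.13 in sahh1 and 5.97 in wild type at day 1, and at 10.23 and 6.35 at day 4. It stood at 8.64 and 6.68 at day 7, and at 9.32 and 7.94 at day 10.

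MRU1 is a gene named for its rise in plants that overaccumulate methionine. It stood at 9.61 and 8.12 in sahh1 and at 6.16 and 5.73 in wild type, a 7.56-fold difference (adjusted p = 0.0145 with the shared limma fit, 0.284 with weights). Both sahh1 samples were above wild type, although 1.49 log2 units apart. XPL1 encodes phosphoethanolamine N-methyltransferase, a large user of S-adenosylmethionine in choline synthesis. It was 2.56-fold higher, at 14.76 and 14.17 in sahh1 and 13.51 and 12.71 in wild type (0.0244 and 0.653).

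The other named genes on the high side were LTP3, a lipid transfer protein (5.79-fold), RLP21, a receptor-like protein (4.11-fold), NOGC1 (3.38-fold), CRR4, a plastid RNA editing factor (2.73-fold), CLE10, a signalling peptide (2.68-fold), and NUDT6, a nudix hydrolase (2.56-fold). All were called with the shared spread and none with weights. NOGC1 was called higher at all 4 ages with the shared spread.

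**Figure D3:**
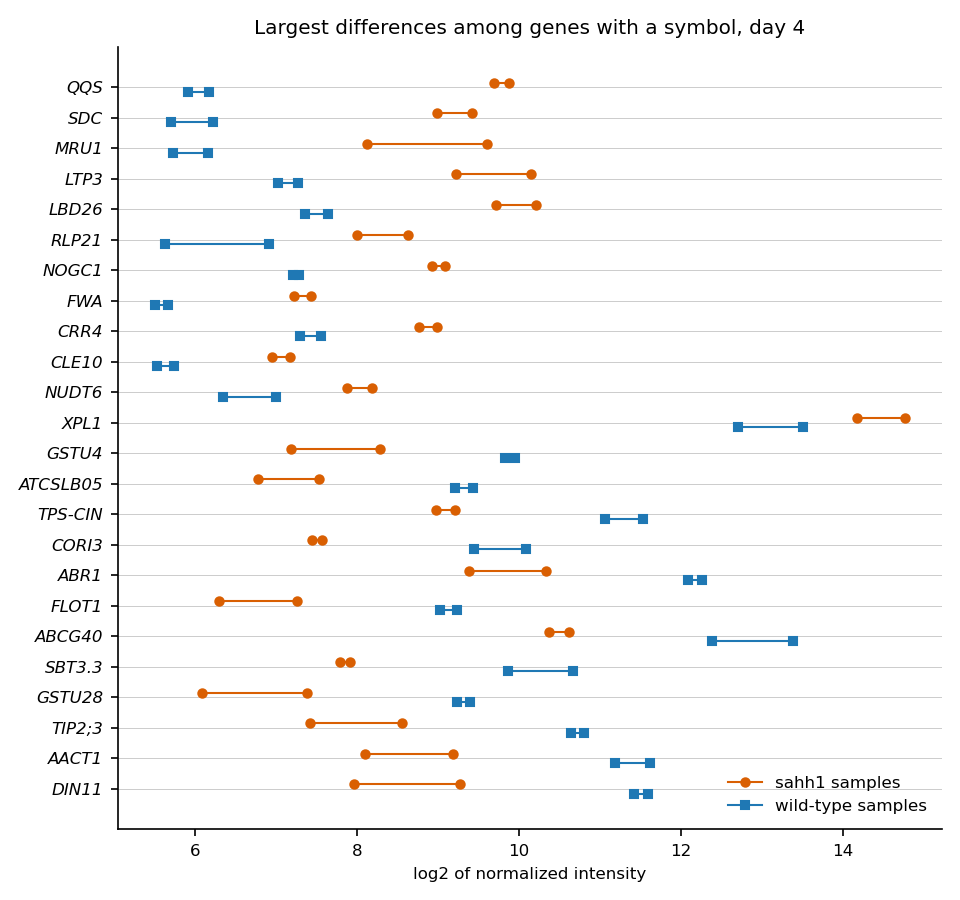
Log2 of normalized intensity at day 4 for the 12 largest positive and 12 largest negative differences among genes with a symbol that the shared-spread fit called, with sahh1 samples as circles above wild-type samples as squares and a line joining the 2 samples of a genotype. The genotypes do not overlap in any row because the choice of genes required this, and 35% of all loci meet that requirement. The sahh1 pair is often the wider one, for example in MRU1, DIN11, GSTU28 and TIP2;3.

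On the low side, DIN11 and TIP2;3 were among the genes with a symbol that differed most. DIN11, a dioxygenase gene induced by darkness, stood at 7.96 and 9.28 in sahh1, against 11.42 and 11.59 in wild type. TIP2;3, a tonoplast aquaporin that also carries ammonia, stood at 7.42 and 8.56 in sahh1, against 10.80 and 10.64 in wild type. The difference was −2.89 ± 0.46 for DIN11 and −2.73 ± 0.32 for TIP2;3 (SE of the shared limma fit), and TIP2;3 came nearest to a call with weights among these genes (adjusted p = 0.094, against 0.508 for DIN11).

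ABCG40, an importer of abscisic acid at the plasma membrane, stood at 10.61 and 10.37 in sahh1 and at 13.38 and 12.39 in wild type. ABR1, an ERF factor that represses abscisic acid responses, stood at 9.39 and 10.34 in sahh1 and at 12.26 and 12.08 in wild type. SBT3.3, a subtilase of immune priming, stood at 7.79 and 7.91 in sahh1 and at 10.66 and 9.86 in wild type. The differences of the 3 genes were −2.40, −2.31 and −2.42, each called with the shared spread and none with weights (adjusted p of 0.653, 0.773 and 0.579 in the weighted limma fit).

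Of the other genes named here, AACT1 (an acyltransferase), FLOT1 (a flotillin), CORI3 (a cystine lyase induced by jasmonate), TPS-CIN (1,8-cineole synthase of roots), ATCSLB05 (a cellulose synthase-like protein) and the glutathione transferases GSTU28 and GSTU4 had differences of −2.75, −2.35, −2.26, −2.20, −2.17, −2.58 and −2.16. Their weighted adjusted p ran from 0.376 to 0.816.

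The largest negative difference of all was in AT1G63040, a transcribed pseudogene. It read 232.9, 198.2, 145.8 and 46.9 in sahh1, against 8654.3, 7395.9, 6630.4 and 6941 in wild type. The gap of −5.79 came with an SE of 1.19, since this locus varied between samples of 1 genotype at other ages: at day 1 the sahh1 arrays read 826.9, 1025.1, 42.6 and 47.6, and the wild-type arrays 142, 149.4, 512.8 and 675.5. Its adjusted p was 0.0399 with the shared limma fit and 0.987 with weights. AT1G56060 (−2.66) and the plastid-encoded ATCG00080 (−2.43) were the other loci without a symbol among the largest, with 0.233 and 0.786 in the weighted fit.

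The calls were then read against the listed gene groups, 30 lists and 12 families formed by gene symbol. None of their members was called with weights, so the counts below are those of the shared fit, for which 0.78% of all loci were called higher and 0.833% lower. The share of loci whose sahh1 samples both lay below both wild-type samples was 16.4% over all loci, and the share with both above was 18.6%.

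Root hair wall and growth genes held several of the calls on the low side, none of them with weights. These genes encode the expansins, extensin-like proteins, oxidases and kinases that build the tip-growing hair. Of 29 listed, 8 were called lower and 0 higher, 20 had both sahh1 samples below both wild-type samples, and 1 had a positive difference. The median difference was −1.06, and it was −1.26 in sahh1 sample 1 and −0.82 in sample 2. The called members' adjusted p in the weighted limma fit were 0.653 to 0.877.

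RHS14 stood at 6.25 and 6.36 in sahh1, against 8.13 and 8.62 in wild type. RHS13, an extensin-like gene, stood at 8.95 and 9.32 in sahh1, against 10.81 and 11.45 in wild type. In both genes the sahh1 samples lay well below the lower wild-type sample. RHD2, the NADPH oxidase of the hair tip, stood at 9.67 and 10.28 in sahh1 and at 11.11 and 11.03 in wild type, and EXPA7, an expansin of hair initiation, at 8.80 and 9.08 in sahh1 and 10.18 and 10.60 in wild type. RHS8, RHS16, RHS18 and MRH6 complete the called members, with differences of −1.46, −1.77, −2.02 and −1.94.

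In whole seedlings, fewer hair cells and less RNA per hair cell cannot be told apart. The median difference of the same 29 genes was −0.11 at day 1, −0.52 at day 7 and −1.58 at day 10. The 8 hair regulators had no call and went apart between the samples, with a median of −0.88 in sample 1 and 0.13 in sample 2. The largest among them were LRL3 (−1.63, adjusted p = 0.106) and RSL2 (−1.45, adjusted p = 0.0901) in the shared limma fit.

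Markers of other root and shoot cells gave no call. The 19 markers of root meristem, stele and endodermis averaged 9.30 and 9.58 in sahh1 and 9.62 and 9.52 in wild type on the log2 scale, and their median difference was −0.21. The 12 genes of root epidermal patterning had a median of 0.29. The 35 photosynthesis genes averaged 14.90 and 14.59 in sahh1 and 14.79 and 14.74 in wild type, with a median of −0.08. The 18 seed storage genes averaged 6.15 and 6.07 in sahh1, with a median difference of 0.12. Green tissue markers were thus bright and seed markers dim. The part of cell composition in the root hair values was not tested.

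Small heat shock proteins, chaperones that hold unfolded proteins, gave the highest share of calls of any list. Of 13 listed, 7 were called lower and 0 higher, and the median difference was −1.36, with −1.29 in sahh1 sample 1 and −1.39 in sample 2. HSP21, the plastid member, stood at 6.71 and 6.43 in sahh1, against 8.95 and 8.16 in wild type. HSP17.6A stood at 10.68 and 10.96 in sahh1, against 12.89 and 12.36 in wild type. HSP23.6-MITO, HSP17.6II, AT1G53540, AT2G29500 and AT5G51440 are the other called members, between −2.00 and −0.88.

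The weighted adjusted p of the called members were 0.383 to 0.971, and the wild-type samples themselves lay apart, with list means of 8.82 and 8.56 in sahh1 and 10.10 and 9.50 in wild type. Wild type at day 4 was the highest of the 8 groups in 10 of the 13 genes. After quantile normalization the median level was 8.43 in sahh1 and 8.50 in wild type at day 1, 9.24 and 10.92 at day 4, 6.72 and 6.18 at day 7, and 6.73 and 6.64 at day 10. Both genotypes were thus highest at day 4, sahh1 less so. Of 14 other heat shock genes, 2 were called lower, HSP90.1 (−1.01) and AT5G48570 (−0.96), with a median of −0.71. The 8 genes of protein folding in the endoplasmic reticulum gave 0 calls and a median of 0.05.

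Jasmonate genes, from synthesis to response, held calls on the low side. Of 26 listed, 3 were called lower, 0 higher, and 0 had a positive difference, and the median was −0.88, with −0.82 in sahh1 sample 1 and −1.03 in sample 2. The called members were the allene oxide cyclase genes AOC1 and AOC3, which make the ring of the hormone, and CORI3. AOC3 stood at 8.42 and 8.66 in sahh1, against 9.89 and 9.92 in wild type. AOC1 stood at 11.48 and 11.49 in sahh1, against 12.80 and 12.61 in wild type.

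VSP1, a storage protein gene used as a jasmonate marker, stood at 7.87 and 7.64 in sahh1 and at 10.45 and 9.25 in wild type (adjusted p = 0.0911, shared limma fit). LOX4, a lipoxygenase gene, stood at 7.67 and 7.24 in sahh1 and at 10.55 and 8.97 in wild type (adjusted p = 0.117). In both, the wild-type samples lay far apart and still above both sahh1 samples. The weighted adjusted p of the 3 called members were 0.816 to 0.869. Wild type at day 4 was the highest group in 16 of the 26 genes.

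Aquaporins, the water channels of plasma membrane and tonoplast, gave 5 called lower and 0 higher of 35, with a median of −0.29. PIP2;4 stood at 8.80 and 8.25 in sahh1, against 10.40 and 10.33 in wild type, and its weighted adjusted p was 0.274 in limma. NIP2;1 (−0.97), RD28 (−0.76) and PIP2A (−0.71) were the other called members beside TIP2;3. Among the alternative settings given under processing, RD28 lost its call with quantile normalization, reference-gene scaling and a replicate block. NIP2;1 lost its call with a replicate block and an intensity trend, and TIP2;3 and PIP2;4 kept theirs in all of these. Glutathione transferases, which conjugate toxic compounds, gave 4 called lower and 0 higher of 45, with a median of −0.23, and GSTU3 (−1.44) and GSTU14 (−1.43) joined the members named above. IRT2, an iron transporter of the root epidermis, was the single call of 26 iron genes, at 8.36 and 8.58 in sahh1 and 9.75 and 10.42 in wild type.

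Among 29 cell cycle and DNA replication genes, TSO2, the small subunit of ribonucleotide reductase, was the single call, at 12.61 and 12.96 in sahh1 and 12.12 and 12.07 in wild type. It lost its call in 17 of 26 alternative settings, array weights among them (adjusted p = 0.755 in limma). In all, 26 of the 29 had a positive difference, 13 had both sahh1 samples above both wild-type samples, and the median was 0.35. The same list had a median of −0.35 at day 1, 0.20 at day 7 and 0.06 at day 10. CMT3, the methyltransferase that keeps CHG methylation, was the single call among 29 genes of the methylation and silencing machinery, at 12.47 and 12.43 in sahh1 and 11.69 and 11.24 in wild type.

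Other lists held single calls. ARR3, a type-A response regulator of cytokinin signalling, was lower by the shared fit (−1.09, 1 of 20 cytokinin genes). FAH1, ferulate 5-hydroxylase of lignin synthesis, was higher (1.05, 1 of 15 phenylpropanoid genes), as were IMS2 of glucosinolate chain elongation (1.17, 1 of 25 genes) and AT4G14090 (1.28, 1 of 19 flavonoid genes). SAHH1 was the single call of 16 methyl cycle genes, whose median was −0.04, and XPL1 that of 12 genes of small-molecule methylation. Among families, cytochrome P450 gave 3 higher and 4 lower of 260, expansins 2 lower of 37, UDP-glycosyltransferases 2 lower of 64, WRKY factors 2 lower of 72 and ERF factors 2 lower of 64.

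No member was called in 15 lists and 6 families. Beside those described above these are the lists of storage oil mobilisation, auxin, ethylene, salicylic acid defence, phosphate starvation, nitrate, abscisic acid and cold, the circadian clock and reference genes, and the families of ribosomal proteins, histones, class III peroxidases, extensins, arabinogalactan proteins and disease resistance proteins. Their medians lay between −0.43 and 0.29.

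**Figure D4:**
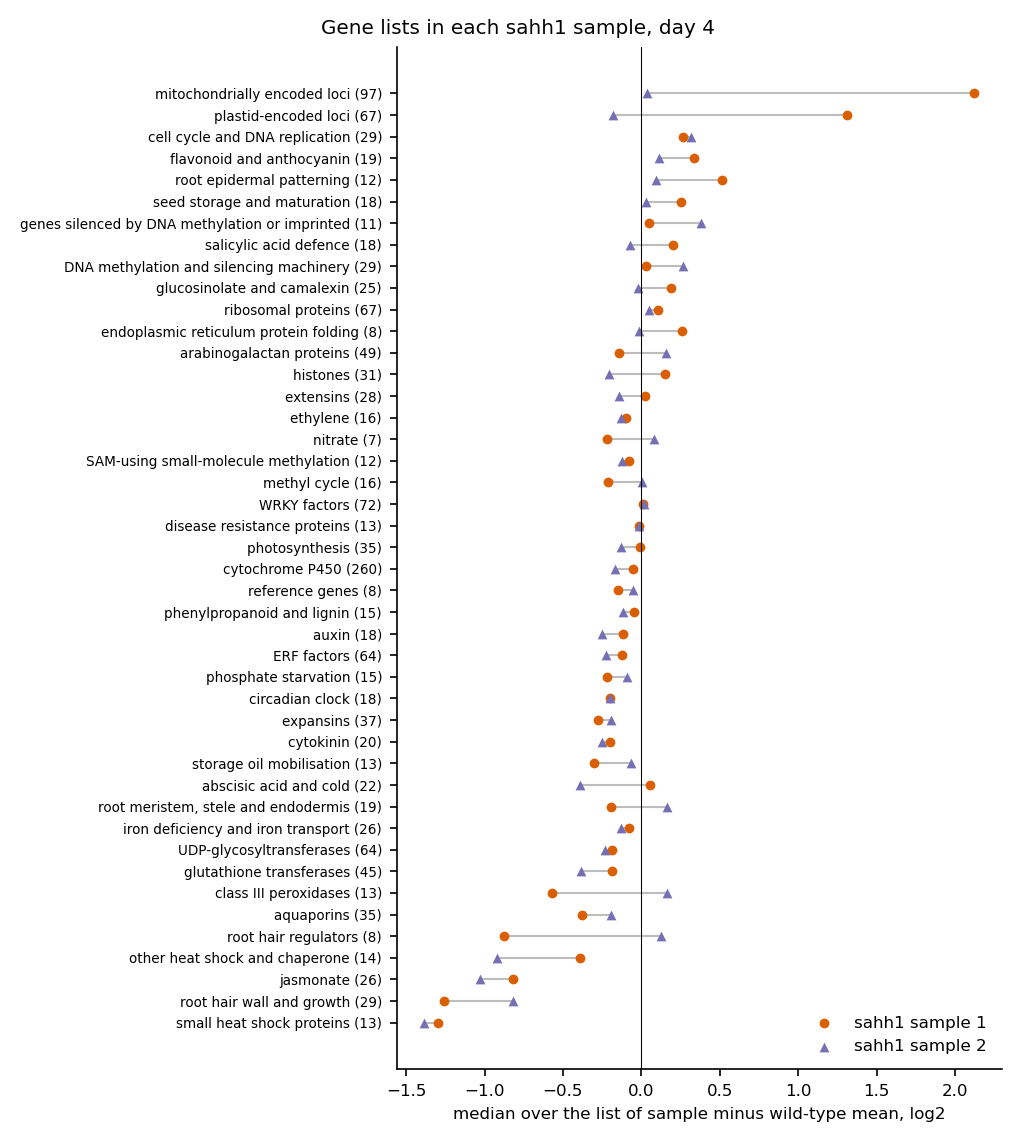
Median over each gene list of the difference from the wild-type mean, in log2 units, with sahh1 sample 1 as a circle and sahh1 sample 2 as a triangle and the number of genes in brackets. Small heat shock proteins, root hair wall genes and jasmonate genes are low in both samples, and the organelle-encoded loci at the top are high in sample 1 alone.

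The requirement that a difference hold in both sahh1 samples separates much of the large change. In sample 1, 1482 loci lay at least 2-fold above the wild-type mean (4.88%) and 836 at least 2-fold below (2.75%). In sample 2 these were 467 (1.54%) and 1142 (3.76%). Both samples were at least 2-fold above at 130 loci (0.428%) and at least 2-fold below at 244 (0.803%). At 84 loci (0.276%) sample 1 was at least 2-fold above and sample 2 at least 2-fold below, and the reverse held at 1 locus (0.00329%). All 490 loci of the shared fit had both sahh1 samples beyond both wild-type samples, which is true of 35% of all loci, and at 468 of them all 4 arrays of each genotype were separate, which is true of 12.5% of all loci.

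Organelle-encoded loci made up a small part of the loci on which the samples disagreed, but as a class they were nearly all higher in sample 1. Of the 1268 loci at least 2-fold above wild type in sample 1 and less than 2-fold from it in sample 2, 79 were mitochondrially and 40 plastid encoded. This class was chosen after the data were seen. The 97 mitochondrially encoded loci had a median difference from wild type of 2.13 in sample 1 and 0.04 in sample 2. In sample 1 none of the 97 lay below the wild-type mean and 86 lay at least 2-fold above it, whereas in sample 2 this was so of 2, and 47 lay below the mean. The median log2 level was 9.26, 9.25, 7.27 and 7.52 on the sahh1 arrays and 7.64, 7.59, 7.21 and 7.09 on the wild-type arrays, so arrays 1 and 2 of sahh1 stood apart together.

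The 67 plastid-encoded loci had a median of 1.31 in sample 1 and −0.18 in sample 2. The samples of some other groups also differed in mitochondrial level, those of day 1 hardly: the median of sample 1 minus sample 2 over the mitochondrial loci was −0.07 in sahh1 and 0.08 in wild type at day 1, 2.17 and 0.47 at day 4, −1.09 and −0.81 at day 7, and −0.75 and 1.16 at day 10. The shared fit called 2 mitochondrial loci higher, ATMG00600 (2.08) and ATMG01370 (0.99), and neither with weights (adjusted p of 0.808 and 0.76).

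Nuclear genes differed between the sahh1 samples as well, and those with a symbol and a mean level above the median that differed most are given as values. ARR7, a type-A response regulator, stood at 10.53 and 7.48 in sahh1 and at 9.54 and 9.09 in wild type. RD26, a NAC factor of dehydration, stood at 13.38 and 10.87 in sahh1 and at 12.29 and 11.78 in wild type. In both, sample 1 lay above wild type and sample 2 below. MEE38, Phox1, NERD and WRKY40 were the others with sample 1 above sample 2, by 2.33 to 3.31 log2 units. In the other direction, GMD1, which makes GDP-fucose, stood at 8.73 and 11.18 in sahh1 and 10.87 and 10.81 in wild type, and PIP2;5 at 9.61 and 11.64 in sahh1 and 10.98 and 10.78 in wild type. PRA1.E, EXO70H6, CLL2 and GLP10 had the same order. No mean difference is read from these genes.

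The day 4 differences were then set beside those of the other ages, each against its own wild type. Of the 237 loci called higher at day 4 with the shared spread, 53 were also called higher at day 1 (22.4% of the day 4 calls, 8.08% of the 656 at day 1, background 2.16%). The overlap was 51 with day 7 (21.5% of the day 4 calls, 29.8% of 171, background 0.563%) and 53 with day 10 (22.4% of the day 4 calls, 21.2% of 250, background 0.823%). Of the 253 called lower, 4, 3 and 13 were also called lower at days 1, 7 and 10, where 0.296%, 0.0658% and 0.201% of all loci were called lower. At all 4 ages 37 loci were called higher, 17 of them pseudogenes, and 1 lower, the pseudogene AT4G16870. At no other age were 171 of the higher and 236 of the lower called, which does not by itself show that they differ between ages. The test of that difference passed the shared-spread threshold at 269 loci (0.885%), 98 upward (0.323%) and 171 downward (0.563%), and at 0 loci with weights, where 1410 had an unadjusted p under 0.05 in limma.

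The level of the wild type at day 4 marks these calls. After quantile normalization, wild type at day 4 was the highest of the 8 groups at 161 of the 253 loci called lower (63.6%), against 20.4% of all loci. It was the lowest at 146 of the 237 loci called higher (61.6%), against 19.8% of all loci. The sahh1 samples of day 4 were the lowest group at 34 of the 253 (13.4%, against 11.5% of all loci) and the highest at 44 of the 237 (18.6%, against 12.7%). These shares are a description, since the calls used the same wild-type values. Among named genes, DIN11, ABCG40, HSP21 and AT3G63380 were highest in wild type at day 4.

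**Figure D5:**
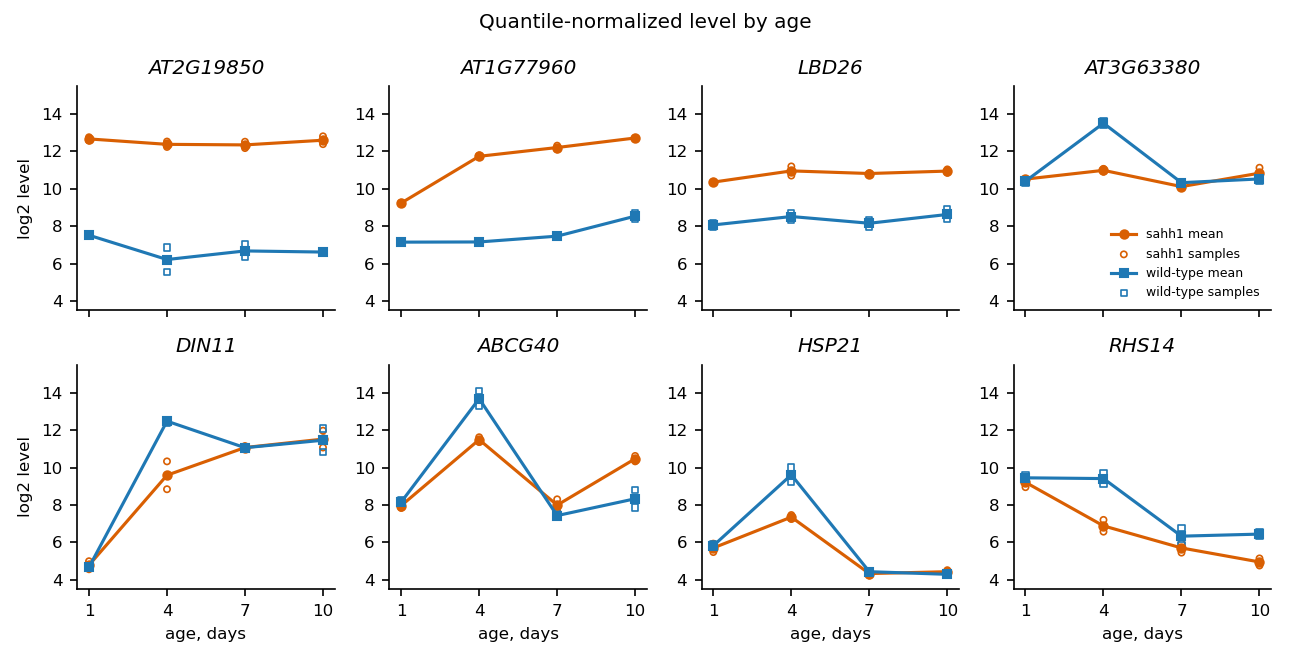
Quantile-normalized log2 level at 1, 4, 7 and 10 days for 8 loci, with sahh1 as circles and wild type as squares, filled for the mean of 2 samples and open for each sample. AT2G19850, AT1G77960 and LBD26 are higher in sahh1 at each age, whereas AT3G63380, ABCG40 and HSP21 show a peak in wild type at day 4 that is lower or missing in sahh1, and RHS14 is lower in sahh1 from day 4 on.

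Some neighbouring loci were called together. With the shared spread 4 pairs of adjacent loci were called higher, holding 8 of the 237 higher calls. On the low side were 11 pairs, holding 22 of the 253 calls, and no run was longer than 2. Of all loci 0.78% were called higher and 0.833% lower, and how many pairs these shares give by position alone was not tested. Pairs of related genes on the low side included GSTU4 with GSTU3, PELPK2 with PELPK1, and HSP17.6II with HSP17.6A, which the arrays may not fully separate. Other low-side pairs included AT4G23590 with CORI3 and AT4G12545 with AIR1, where the same limit may hold. On the high side AT2G40955, one of the 17, lay beside AT2G40960 (1.25).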

How the data were processed

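Whole seedlings were measured on 32 single-colour arrays. The authors deposited linear intensity values, 1 for each locus on each array, made with RMA per the submitters' processing notes, which give no version; log2 was taken here. Probe signals were not used, so background was not examined, and the number of arrays limits precision. Groups came from the sample titles. Arrays 1 and 2, and 3 and 4, of a group were averaged (16 samples). The locus table was matched to RefSeq (assembly TAIR10.1) for names: 29996 of 30385 loci matched and 10357 have a symbol. The table's own build is not given in the sources used here, so no coordinates are printed.

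The model (limma 3.58.1 under R 4.3.3) had 8 group means (8 residual degrees of freedom, prior 3.16) and no filter, with Benjamini-Hochberg adjustment over all loci. The departure of day 4 is its difference minus the mean of those at days 1, 7 and 10, after quantile normalization. The fits were also run on simulated data, which is not used here as evidence for the calls of the shared fit. The weighted fit is an alternative, not the planned main one, and its use for the words "rose" and "fell" was decided after seeing the data.

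Members, the 30 lists (554 entries, written from general knowledge) and the 12 families, formed by symbol because the reference gives no product names, were chosen with earlier results of these data known. Named genes are the 12 largest called differences in each direction with a symbol and 4 without, up to 4 called members of a list or 2 with the lowest p, the 6 largest departures each way, 6 genes each way in which the sahh1 samples differ most, SAHH1 and SAHH2. Further list members were added to complete the called ones, and the loci called with weights, VSP1 and LOX4 were named after their values were seen. Alternatives were other scalings, a filter on dim loci, single arrays, a random block, day 4 alone, weights, a replicate block, an intensity trend and leaving out each sample. Sample numbers were not taken to pair samples: the correlation of deviations between genotypes was positive at days 4 (0.185) and 7 (0.753) and negative at days 1 (−0.483) and 10 (−0.168).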

Additional observations from a re-analysis of the deposited data

Results flagged for a closer look

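The difference at day 4 departed from the mean difference of the other ages at 269 loci (0.885%), 98 upward (0.323%) and 171 downward (0.563%), at an adjusted p under 0.05 in limma with the shared spread. With array weights limma called 0, with a lowest adjusted p of 0.264, and 1410 loci had an unadjusted p under 0.05, against 4619 with the shared spread. The values below are therefore differences of differences on the log2 scale that passed the shared-spread test alone.

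The largest downward departure was that of SUC7. SUC7, of the sucrose transporter family, had −3.86, and it was lower at day 4 (−2.65) and higher at day 7 (1.27) and day 10 (2.54). The mitochondrial phosphate carrier gene PHT3;2 had −3.75, GAD4, a glutamate decarboxylase gene, −3.33, AT1G57630 −3.66, AT1G56060 −3.42 and AT5G25425 −3.22. ABCG40 had −3.03, with a day 10 difference of 2.15 that ran the other way, DIN11 −2.96, SBT3.3 −2.88, FLOT1 −2.83, ABR1 −2.82 and AT3G63380 −2.59.

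Heat shock genes were also among them: HSP21 at −2.23, AT1G53540 at −2.20, HSP23.6-MITO at −1.82 and HSP17.6A at −1.70. GSTU4 had −2.23, WRKY67 −2.09, UGT74E2 −1.91, ATCSLB05 −1.83, PIP2;4 −1.56 and ARR3 −1.51.

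Upward departures were AT2G07731 at 3.35, AT5G09570 at 2.85, CLE10 at 2.63, AT4G12490 at 2.55, AT1G33950 at 2.45 and AT5G41650 at 2.42, with OLEO4, an oleosin gene of seed oil bodies, at 1.67, NUDT6 at 1.49, CRR4 at 1.49, AT4G14090 at 1.22 and ATMG01370 at 1.22. The day 4 difference of OLEO4 was itself not called (adjusted p = 0.236, shared limma fit). After quantile normalization OLEO4 differed by 1.35 at day 4 and by −1.04 at day 1. AT2G07731 stood at 8.23 and 7.29 in sahh1 and at 5.97 and 5.30 in wild type at day 4. It lies in the part of chromosome 2 that carries a copy of the mitochondrial genome, so its signal and that of the organelle cannot be told apart.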

How the results depend on the processing

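With 2 samples per genotype, the count of loci called at day 4 (490) depends on how the spread is taken. It was 1337 after quantile normalization, 5366 with single arrays, 2048 with the sample as a random block, 11 with day 4 alone and 17 with array weights. Without 1 sample it ran from 73 to 5033: 73 and 85 without wild-type day 4 sample 2 or 1, 1699 and 5033 without sahh1 day 4 sample 1 or 2, 203 without either of the wild-type samples of day 1, 236 without one of the sahh1 samples of that day and 308 without one of the sahh1 samples of day 7. A replicate block gave 345, of which 249 were among the 490; the samples share only a number, and at day 4 their deviations correlated at 0.185. For SAHH1 the difference depended on the scaling. It was −1.10 after quantile normalization, −1.50 with cyclic loess and −1.45 scaled to the reference genes, against −1.53 as deposited. With day 4 alone (limma, adjusted p = 0.542) and with array weights (0.103) it stayed −1.53, since these settings keep the group means. Without 1 sample it ran from −2.00 to −1.07.

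The 269 departures became 111 with reference-gene scaling (all-locus median 0.13), 4042 with single arrays, 931 with the random block, 0 with weights (1410 at an unadjusted p under 0.05), 102 with the replicate block and 161 with an intensity trend. Without 1 sample they ran from 78 (wild-type day 1 sample 1) to 4067 (sahh1 day 4 sample 2). As deposited, 33 were upward and 160 downward, against 98 and 171.

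Of genes with no call, several turned sign when 1 sample was left out. Those below, SAHH2 and RALFL31 aside, were picked because the sahh1 samples of day 4 differ most in them. Their change of sign follows largely from that choice. The highest values below come from the fit without sahh1 day 4 sample 2 for MEE38 (−2.13 to 1.18), ARR7 (−1.83 to 1.21), RD26 (−1.17 to 1.34), Phox1 (−1.17 to 1.23), NERD (−0.11 to 2.27), SAHH2 (−0.23 to 0.23) and RALFL31 (−0.81 to 0.66), and the lowest come from it for GMD1 (−2.11 to 0.33), PRA1.E (−1.94 to 0.21), EXO70H6 (−1.69 to 0.43), PIP2;5 (−1.27 to 0.76), CLL2 (−1.48 to 0.51) and GLP10 (−1.65 to 0.31), with the other end from the fit without sample 1. Phox1 became −0.00329 with cyclic loess and RALFL31 0.00588 with the reference genes. Of 80 named loci called with the shared spread, 6 were also called with weights, and the adjusted p of the others ran from 0.0867 to 0.987. AT2G19850, AT3G54730, AT4G16215 and AT2G05915 kept their calls under all 26 alternatives, and LBD26 and AT3G63380 under all but the fit of day 4 alone.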
